A study of Mus musculus with 2 samples.

Results

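Mir191 and Mir425 are neighbouring microRNA genes on mouse chromosome 9, and their levels were followed here in small RNA of the cerebral cortex. They were taken as the rows with the GENCODE M21 symbols Mir191 (ENSMUSG00000105497.1) and Mir425 (ENSMUSG00000065579.1) in both count tables, which gave 2 genes of the 2202 listed. The tables come from 2 microRNA sequencing libraries of 1 group, left cerebral cortex taken from male mice of the B6CASTF1/J hybrid (C57BL/6J crossed with CAST) at 36 days of age. Replicate 2 came from the animal numbered 4 and replicate 1 from the animal numbered 3, both untreated as far as the labels say, and the RNA sequenced was shorter than 30 bases by its label. No condition was compared, so the data give the level of each gene, the balance between the neighbours, and how far the libraries differ in both.

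A microRNA gene is transcribed as part of a longer RNA, from which a hairpin is cut and then trimmed to a mature strand that guides Argonaute proteins to messenger RNAs paired with its seed. Neighbouring hairpins cut from the same transcript share their transcription, but each is processed and turned over separately. miR-191 is found in many tissues and is often used, like miR-103, to scale other microRNAs in PCR assays. In cultured rodent hippocampal neurons it has been linked to the remodelling of dendritic spines, and miR-425 is known in human heart cells to repress the mRNA of atrial natriuretic peptide.

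The hairpins are shown to place the mature strands that the reads come from. They are RefSeq sequences (GRCm38.p6, plus strand), to which both genes matched, in lower case with the 5p and 3p mature strands in capitals.
Mir191 hairpin, chr9:108568319-108568392: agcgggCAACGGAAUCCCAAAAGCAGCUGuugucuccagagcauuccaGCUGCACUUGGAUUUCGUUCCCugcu
Mir425 hairpin, chr9:108568777-108568861: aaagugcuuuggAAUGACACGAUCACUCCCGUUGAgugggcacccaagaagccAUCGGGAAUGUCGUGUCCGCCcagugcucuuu

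The hairpins are 74 and 85 bases long for Mir191 and Mir425, with GC contents of 54.1% and 54.1%, and 384 bases lie between them. RNAfold predicted a minimum free energy of -35.0 kcal per mol for Mir191, with 17 base pairs between its 5p and 3p strands. For Mir425 it predicted -31.7 kcal per mol, with 14 such pairs. These are predictions from the letters alone and were not measured in the tissue.

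The mature strands are given next because their seeds, bases 2 to 8 in capitals, set which messages each can pair with.
miR-191-5p: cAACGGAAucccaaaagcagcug
miR-191-3p: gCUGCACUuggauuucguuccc
miR-425-5p: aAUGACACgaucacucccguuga
miR-425-3p: aUCGGGAAugucguguccgcc
miR-489-3p: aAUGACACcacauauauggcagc

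The 4 mature strands of the pair carry 4 different seeds, so no seed is shared between Mir191 and Mir425. Among 1738 mature mouse microRNAs in the RefSeq table, 1 other has a seed of the pair: miR-489-3p, from Mir489 at chr6:3721922-3721944 on the minus strand, has the seed of miR-425-5p. Mir489 had 0 counts in replicate 2 and 0 in replicate 1, which allows up to 0.748 and 0.702 CPM. No read of Mir489 was thus detected at this depth, while reads of Mir425 were. The counts do not separate the arms of a hairpin, so the level of miR-425-5p alone is not known. Of the 2202 genes, 1023 have a run of 22 bases that recurs in another microRNA gene on the same strand. A read that lies within such a run would map to both genes. Neither Mir191 nor Mir425 is among the 1023. The run is longer than miR-425-3p, of 21 bases, so a copy of that strand alone could be missed. The search covered exact matches among microRNA genes only, so loss of their reads to other places in the genome was not tested.

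The genes around the pair depend on the annotation. In GENCODE M21 (mm10), both lie inside the lincRNA gene 4833445I07Rik (chromosome 9, 108567533 to 108569174, plus strand). Its transcript 4833445I07Rik-201 holds both hairpins in its single exon, exon 1, whereas in 4833445I07Rik-202, with 2 exons, Mir191 is intronic and Mir425 lies outside. Dalrd3, whose human product is needed to methylate arginine tRNAs, starts 1024 bases after the end of Mir425 in GENCODE M21. RefSeq for the same assembly has Dalrd3 from 108567484 to 108572773, a span that contains both hairpins. The pair is thus within Dalrd3 by RefSeq, and within the lincRNA gene upstream of it by GENCODE M21. The count tables list microRNA genes only.

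A further microRNA gene, Gm24083, lies on the minus strand at 108568295 to 108568414 and covers all of Mir191. It covers no base of Mir425. Gm24083 had 0 counts on its own strand in both libraries. Its opposite-strand counts were 41039 in replicate 2 and 36808 in replicate 1, the same numbers as the own-strand counts of Mir191. The unstranded column gave 0 counts to Mir191 in both libraries, because a read that falls on overlapping genes of opposite strands is ambiguous there. For Mir425, with no such neighbour, the unstranded and own-strand counts were identical. All levels below therefore use own-strand counts.

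**Figure D1:**
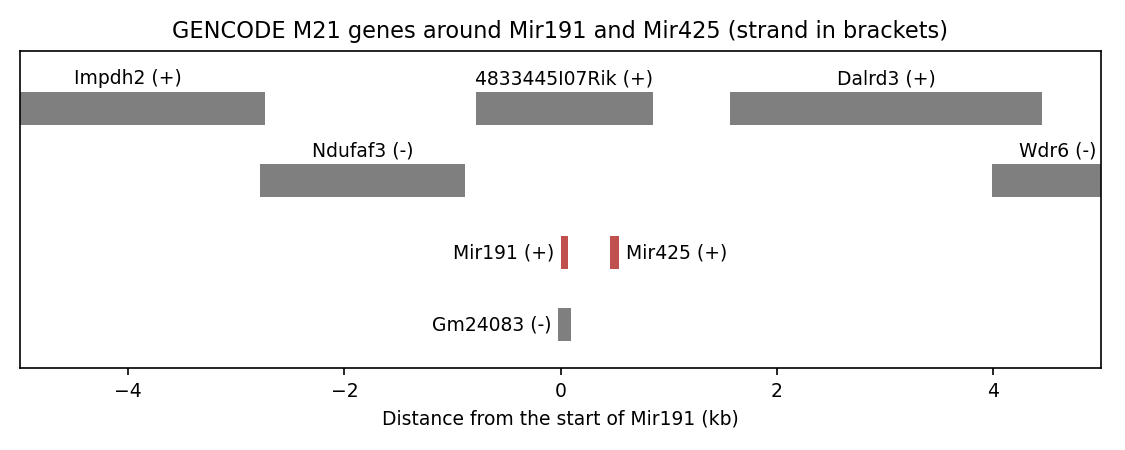
Genes of GENCODE M21 around the pair, drawn as bars on distance from the start of Mir191 (horizontal axis, kb), with the strand in brackets. Gm24083 covers Mir191 on the other strand, 4833445I07Rik contains both microRNA genes, and Dalrd3 starts 1.57 kb from the start of Mir191.

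Replicate 2 held 11534730 reads and replicate 1 held 11886775, of which 4010274 and 4273791 were assigned to microRNA genes on their own strand. Levels are in CPM, the own-strand counts of a gene per 1000000 own-strand counts of its library. Reads that mapped to several places, 39.9% of replicate 2 and 42.8% of replicate 1, are not in the gene counts. Intervals are exact 95% binomial ones and, like limits for 0 counts, cover counting error only, since reads without molecular identifiers are not independent molecules.

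By the reads counted, Mir191 was among the most abundant microRNA genes of the cortex. It had 41039 counts in replicate 2, or 10233 CPM (10135 to 10332), and 36808 counts in replicate 1, or 8612 CPM (8525 to 8701). Its mean was 9423 ± 1146 CPM (SD, n = 2), and it ranked 19 in replicate 2 and 26 in replicate 1. By mean level it stood 22nd of 2202 genes, where the highest, Mir139, averaged 107482 ± 31986 CPM. Genes that share 22 bases with another locus may lack multi-mapped reads, so these places hold only for the reads counted.

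In the order of means, Mir128-1, a neuronal microRNA gene, stood just above Mir191 at 9537 ± 4866 CPM, and Mir22 just below at 9271 ± 9154 CPM (SD, n = 2). These neighbours have nearly the mean of Mir191 by their place in the order, and the differences between these means are smaller than the spread of each gene. Within the libraries they lay apart from Mir191. In replicate 2 Mir128-1 had 6096 CPM and Mir22 had 2799 CPM, both below Mir191, and in replicate 1 they had 12977 and 15744 CPM, both above it.

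Mir425 was moderately abundant. It had 2473 counts in replicate 2, or 617 CPM (593 to 641), and 3517 counts in replicate 1, or 823 CPM (796 to 851). The mean was 720 ± 146 CPM (SD, n = 2), with ranks of 121 and 109 in replicates 2 and 1. It too was among the 300 genes at 10 CPM or more in both libraries. In the order of means its neighbours were Mir326 at 727 ± 108 CPM and Mir300 at 703 ± 56.2 CPM, again close by their place in the order. Both lay above Mir425 in replicate 2, at 804 and 742 CPM, and below it in replicate 1, at 651 and 663 CPM.

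**Figure D2:**
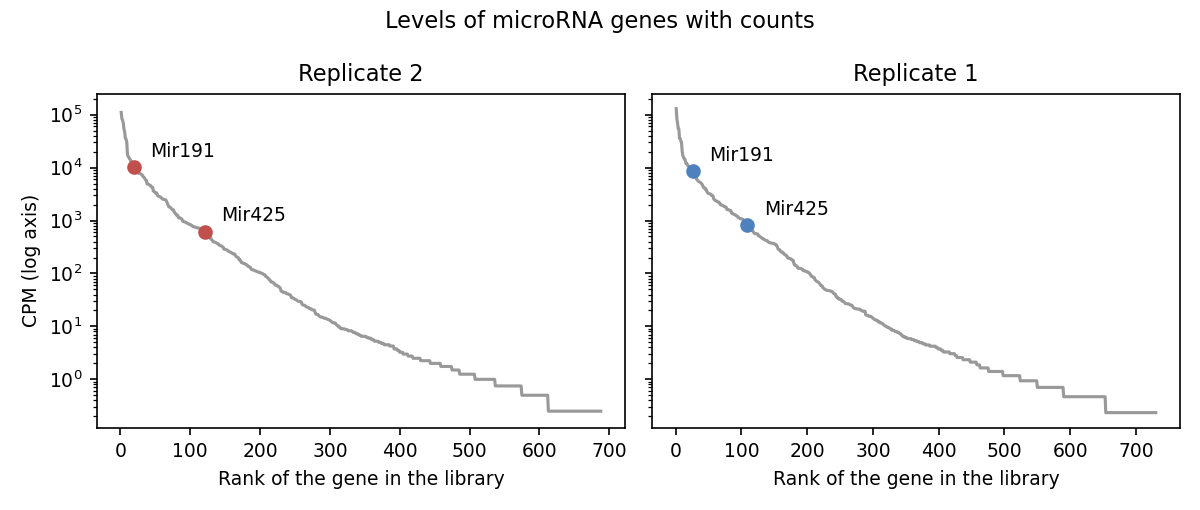
CPM (log axis) of every microRNA gene with counts, against its rank in the library (horizontal axis), for replicate 2 and replicate 1. Mir191 lies near the steep left end at 10233 and 8612 CPM, and Mir425 further down at 617 and 823 CPM.

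Together the pair took 1.09% of the own-strand counts in replicate 2 and 0.944% in replicate 1, or 10143 ± 1000.4 CPM (SD, n = 2). Nearly all of this came from Mir191, which made up 94.3% of the pair's counts in replicate 2 (94.1 to 94.5) and 91.3% in replicate 1 (91.0 to 91.6). There were 16.6 reads of Mir191 for each read of Mir425 in replicate 2 and 10.5 in replicate 1. Per base of hairpin these ratios were 19.1 and 12.0. Neighbours on 1 annotated transcript thus differed in read level more than 10-fold in both libraries.

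By the smallest distance in log2(CPM + 1) over the 2 libraries, the genes with levels most like those of Mir191 were Mir328 (distance 0.25), Mir324 (0.29) and Mir541 (0.29). Mir328 had 10434 CPM in replicate 2, against 10244 CPM in replicate 1. Nearest to Mir425 were Mir497 (0.17), Mir666 (0.34) and Mir376a (0.37), and Mir497 had 689 and 865 CPM in replicates 2 and 1. With 2 libraries this likeness is of level and of a single ratio, not of a pattern over conditions.

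The libraries were then compared gene by gene by exact binomial tests (two-sided) that took TMM effective library sizes as the base, with Benjamini-Hochberg adjustment at 0.05 over 516 genes with 10 or more counts together. This test compares these libraries, not conditions, and measures counting error only, so a small p does not show a difference between animals. It called 57.9% of the genes tested, 27.5% higher and 30.4% lower in replicate 2, so that calls were the rule among these genes. Mir191 was higher in replicate 2, with a log2 ratio of 0.29 (0.27 to 0.31; adjusted p = 8.97e-171, exact binomial test). Mir425 was lower in replicate 2, with a log2 ratio of -0.38 (-0.45 to -0.30; adjusted p = 7.03e-23, exact binomial test). These are ratios of 1.22 and 0.771 between the libraries.

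Both differences were below the middle of those seen between these libraries. Among the 309 genes with 100 or more counts together, the median absolute log2 ratio was 0.46 and the median log2 ratio -0.04. Of these genes, 100 had a smaller absolute log2 ratio than Mir191 and 119 a smaller one than Mir425. The directions of Mir191 and Mir425 did not flip with DESeq2 size factors (0.33 and -0.34) or with total counts (0.25 and -0.42).

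The ratio of the neighbours was compared as well, which needs no scaling of the libraries. Its change combines both differences given above, which went in opposite directions, so it is no separate evidence of a difference. The log2 ratio of Mir191 to Mir425 was 4.05 in replicate 2 and 3.39 in replicate 1. It was higher by 0.67 in replicate 2 (0.59 to 0.74; adjusted p = 8.39e-65, Fisher's exact test, two-sided). The adjustment covered 29 same-strand clusters of exactly 2 genes with Mir symbols within 10 kb. Each gene had 10 or more counts in the libraries together and some in each library. The test called 75.9% of these clusters.

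Set against the other 28 clusters, the shift in the Mir191 and Mir425 balance was of ordinary size. Of these clusters, 18 had a larger absolute change of the log2 ratio between libraries and 10 a smaller one, with a median of 0.80 and a range of 0.02 to 3.03. Some of the larger changes rest on few counts. Mir301b, beside Mir130b, had 9 and 1 counts in replicates 2 and 1, and Mir7220, beside Mir6982, had 11 and 3. Their intervals were wide, at -8.10 to 0.22 and -5.25 to -0.71. In 12 of the 29 clusters, Mir191 and Mir425 among them, 1 gene was called higher and the other lower. In 8 both genes were called in the same direction, and in the remaining 9 at least 1 gene was not called. Genes with 22 bases in common with a second locus can lose reads to multi-mapping. Among the 13 other clusters without such genes, a subset chosen after the values were seen, 9 had a larger change than Mir191 and Mir425. The median absolute change of the 13 was 0.83. Mir130b with Mir301b and Mir6982 with Mir7220, on few counts, are among the 9.

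The imbalance itself was also not extreme. In 10 of the 28 other clusters the more abundant gene exceeded its neighbour by a larger factor than Mir191 exceeded Mir425, in both libraries. Some of those clusters, such as Mir181b-2 with Mir181a-2 and Mir29a with Mir29b-1, hold genes that share 22 bases with another locus. Their factors may therefore reflect reads lost to multi-mapping, which was not tested.

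**Figure D3:**
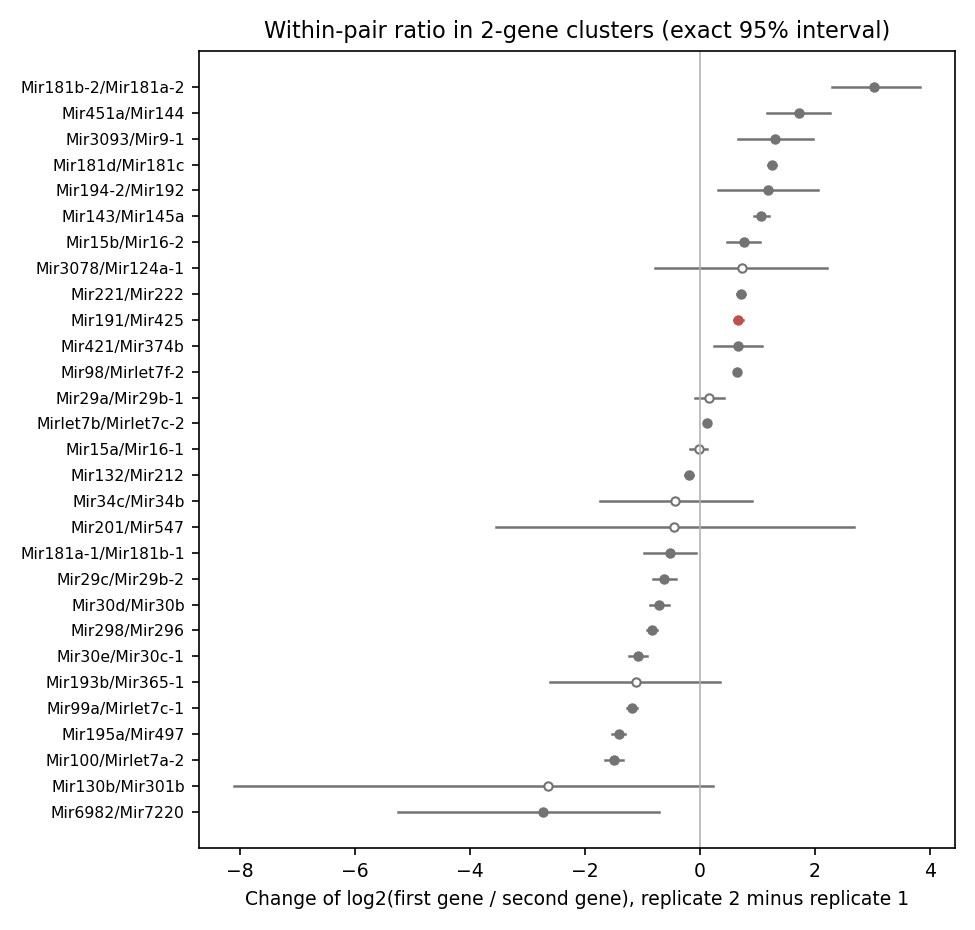
Change of the log2 ratio of the first to the second gene, replicate 2 minus replicate 1 (horizontal axis), for 29 clusters of 2 genes, with exact 95% intervals. Filled points have an adjusted p under 0.05 in Fisher's exact test. Mir191/Mir425 (red) lies at 0.67 within a range of -2.73 to 3.03, whose low end, Mir6982/Mir7220, rests on few counts.

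Of 3 clusters set beside the pair, Mir221 and Mir222, an X-linked pair with a shared seed, came closest to it in the change of balance. Mir221 had 7687 CPM in replicate 2, against 5200 CPM in replicate 1, and Mir222 had 949 CPM, against 1057 CPM. Their log2 ratio was higher by 0.72 in replicate 2 (0.65 to 0.79), an interval that overlaps that of Mir191 and Mir425. Whether these 2 changes differ was not tested.

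Mir132 and Mir212, which neuronal activity induces from a shared transcript, had a smaller change of balance. Mir132 had 30022 and 54937 CPM in replicates 2 and 1 and Mir212 had 700.5 and 1121 CPM, so that both were lower in replicate 2. Their log2 ratio changed by -0.19 (-0.26 to -0.12). Mir451a and Mir144, of maturing red cells, were both higher in replicate 2. Mir451a had 726 and 47.0 CPM and Mir144 had 45.6 and 9.83 CPM, and their log2 ratio changed by 1.73 (1.17 to 2.27).

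**Figure D4:**
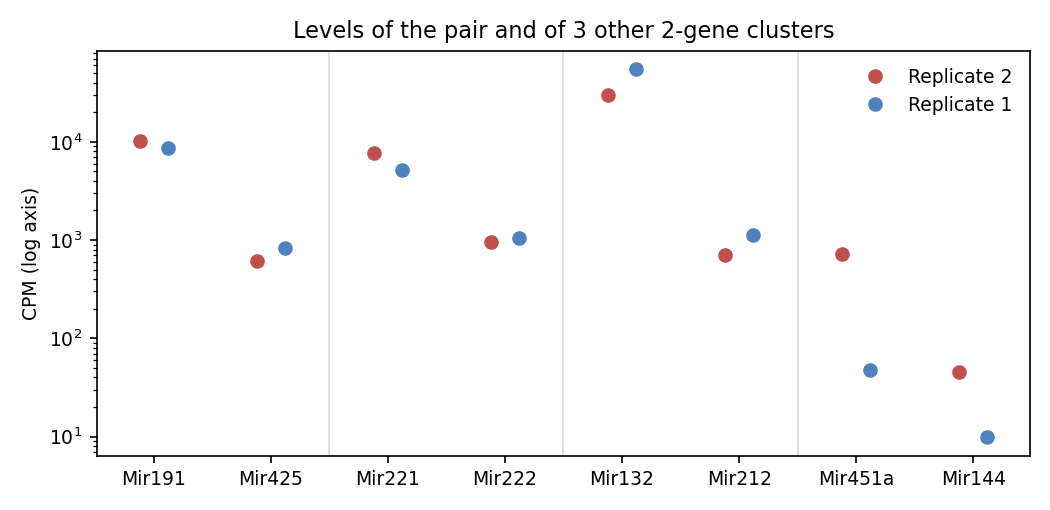
CPM (log axis) of Mir191 and Mir425 and of 3 other clusters of 2 genes, with a point for replicate 2 and a point for replicate 1. Mir191 is higher and Mir425 lower in replicate 2, as are Mir221 and Mir222, while the other clusters move together.

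Mir191 and Mir425 belong to a group of microRNAs commonly taken as references in assays, so the spread of that group between the libraries was listed. Of its 13 genes, 5 were called higher and 6 lower in replicate 2, beside 27.5% and 30.4% of all genes tested. Calls were more common at higher counts. Among the 309 genes with 100 or more counts together, adjusted on their own, 121 were called higher and 132 lower. The median absolute log2 ratio was 0.58 over the 11 genes other than the pair, against 0.46 over the 309 genes with 100 or more counts and 0.55 over all 516 genes tested. Of the 11, all but Mir103-1 had 100 or more counts, and the median of 0.58 is the value of Mir103-1 itself. Of those 11 genes, 2 had a smaller absolute log2 ratio than Mir191 and 3 a smaller one than Mir425.

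The closest to equal were Mir25, of the cluster in Mcm7, and Mir30e. Mir25 had 41.1 CPM in replicate 2, against 44.0 CPM in replicate 1, and was not called (log2 ratio -0.06). Mir30e had 2293 and 2227 CPM, a log2 ratio of 0.08, and was called higher. Mir16-1 had 283 and 372 CPM, a log2 ratio of -0.36, close to that of Mir425.

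Others of the group differed more. Mir361 had 6508 CPM in replicate 2, against 3252 CPM in replicate 1, and its log2 ratio was 1.04. Mir93, a neighbour of Mir25, had 1836 and 1203 CPM and a log2 ratio of 0.65. Mir423 had 946 and 2279 CPM, a log2 ratio of -1.23. These 3 were called, as were Mir484 at a log2 ratio of -0.43, Mir186 at -0.43, Mir16-2 at -1.31 and Mir103-2 at 0.77. Mir103-1, on 34 and 25 counts, was not called (log2 ratio 0.58). The 4 Mir103 and Mir16 genes each have 22 bases in common with a further locus, so their counts may lack reads. No such stretch was found for Mir191 or Mir425 on their own strand among the microRNA genes, the only sequences searched.

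**Figure D5:**
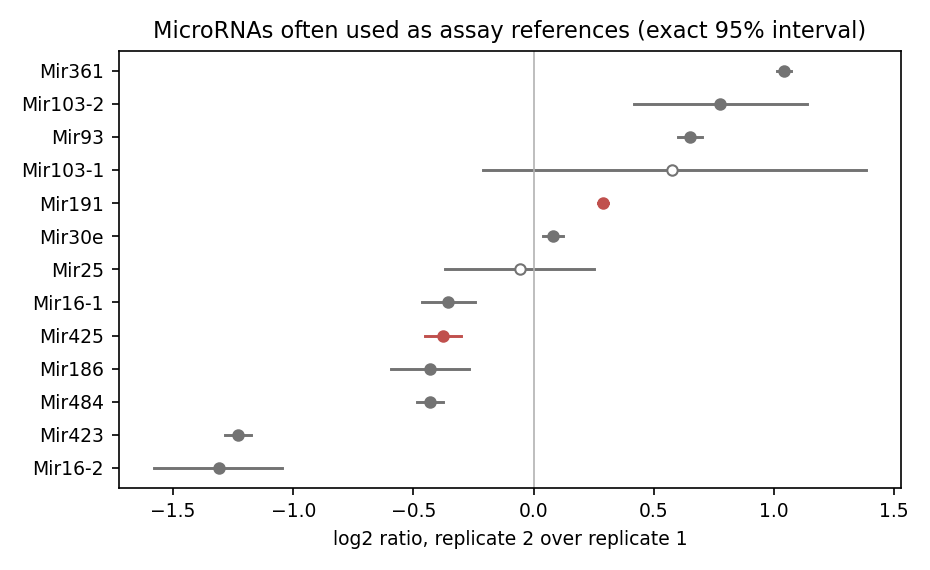
log2 ratio of replicate 2 over replicate 1 (horizontal axis) for 13 microRNA genes often used as assay references, with exact 95% intervals; filled points have an adjusted p under 0.05 in the exact binomial test. Mir191 (0.29) and Mir425 (-0.38), in red, lie in the middle of a range of -1.31 to 1.04.

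Markers of cell types also differed between the libraries, and their part in the values of Mir191 and Mir425 was not tested. The counts of called genes below stand beside 27.5% called higher and 30.4% called lower among all genes tested. Among the 309 genes with 100 or more counts together, adjusted on their own, 121 were called higher and 132 lower. Lists this short are given as a description. In bulk tissue, fewer cells of a type and less RNA per cell cannot be told apart. The 3 red-cell genes, among which 2 were called higher, summed to 794 CPM in replicate 2, against 83.5 CPM in replicate 1. The 5 epithelial genes summed to 386 and 138 CPM, with 4 higher and 1 lower, and the 2 mural genes to 7691 and 5178 CPM, with 1 higher and 1 lower. Most of the red-cell sum was Mir451a (726 and 47.0 CPM), and most of the mural sum was Mir143 (7484 and 4892 CPM). The red-cell, epithelial and mural sums were higher in replicate 2.

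The 9 neuronal genes summed to 53459 and 85535 CPM in replicates 2 and 1, and the 3 oligodendrocyte genes to 3543 and 5098 CPM. Both sums were lower in replicate 2. Mir132 made up most of the neuronal sum, at 30022 and 54937 CPM. Of the 8 neuronal genes tested 2 were called higher and 5 lower, with Mir124a-2 at 0 in both libraries. The Mir124a genes have 22 bases in common with each other, so their counts may lack reads and do not give the level of miR-124. The same limit holds for the Mir128, Mir138 and Mir219a genes and for Mir486 of the red-cell list. Of the oligodendrocyte genes, none was called higher and 2 lower. The 5 leukocyte and microglia genes summed to 2065 and 2228 CPM, with 2 higher and 2 lower, and the endothelial marker Mir126a had 10799 and 11394 CPM and was called lower. Genes of each marker list were detected. The neuronal sum was the highest, but the lists differ in length, so the sums do not rank the cell types.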

How the data were processed

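The deposited tables, 1 per library, hold whole-number read counts per microRNA gene that were not normalized. Reads were mapped to mm10 with the GENCODE M21 annotation, per the text files deposited beside the tables; the sources used here do not name the aligner, the counter, the trimming or any use of molecular identifiers. The 3 headerless columns were read as unstranded, own-strand and opposite-strand counts. Entries that name no gene stayed out of totals and tests: in replicate 2, 39.9% of reads were multi-mapped, 20.9% unmapped and 4.39% outside microRNA genes, against 42.8%, 16.7% and 4.56% in replicate 1. A gene's count holds the reads of its 5p and 3p strands. Both libraries carry the same donor identifier but separate animal numbers, and p-values cover counting error only.

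Symbols came from GENCODE M21, which matched all 2202 identifiers, and sequences from RefSeq (GRCm38.p6), which held mature strands for 1018 of them by symbol. Levels are CPM, with detection at 10 CPM. TMM sizes came from edgeR 4.0.16 and alternative sizes from DESeq2 1.42.0 (R 4.3.3), both over genes with 10 or more counts; RNAfold 2.7.2, Python 3.11.15, SciPy 1.17.1, NumPy 2.4.6, pandas 2.3.3 and Matplotlib 3.10.9 were used. Tests were tried on simulated counts that varied by counting error only, which does not cover spread between animals or libraries. The genes and lists were chosen with earlier results of these data known. Named are the pair, genes sharing their seeds, the 3 nearest genes in level (pseudocount 1), 3 comparison clusters, the reference list, leading markers and the top gene; Mir22, Mir326 and Mir300 were named after their values were seen, as rank neighbours.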

Additional observations from a re-analysis of the deposited data

Results flagged for a closer look

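Reads in a column that the comparisons did not use exceeded the 3 counts that a count of 0 allows. In the unstranded column, 300389 reads of replicate 2 and 303325 of replicate 1 were ambiguous between overlapping genes. Mir191 alone, by its own-strand count, equals 13.7% of these reads in replicate 2 (exact 95% interval 13.5 to 13.8) and 12.1% in replicate 1 (12.0 to 12.3). The opposite-strand column of Gm24083 held 41039 reads in replicate 2 and 36808 in replicate 1, equal to the own-strand counts of Mir191.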

How the results depend on the processing

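Under DESeq2 size factors, total counts and totals without the most abundant gene, the log2 ratio of Mir191 was 0.25 to 0.33 and that of Mir425 -0.42 to -0.34, with the direction and the call of each kept. Other minimum counts leave these ratios as they are by construction and only change the adjustment. With unstranded counts the mean level of Mir191 was 0 CPM, so no log2 ratio of Mir191 and no ratio of the pair could be had. Per 1000000 reads of all kinds, Mir191 had 3327 and Mir425 had 255. Either library alone gave 8612 to 10233 CPM for Mir191, 617 to 823 CPM for Mir425 and 3.39 to 4.05 for the log2 ratio of Mir191 to Mir425, a range that is no check of stability, since with 2 libraries each value lies within 1 SD of the mean. Requiring log2 ratios of at least 1 in size left 40 genes called higher and 60 lower in replicate 2, against 142 and 157, and neither Mir191 nor Mir425 met that size. At 1 CPM or more 464 genes were detected, and at 100 CPM or more 192. Without clusters that share a stretch of 22 bases, chosen after seeing the data, 11 of 14 were called, against 22 of 29, since fewer were tested. No paired analysis was possible because the libraries form 1 group. The limits are the 2 libraries, the multi-mapped reads and the merged arms.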
